A study of Homo sapiens with 6 samples.

Results

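The 33 genes described here are known androgen-regulated and prostate luminal genes outside the kallikrein family, taken as a named list, and they were 33 of the 16442 genes that passed the filter on low counts. RNA from T47D cells, a hormone receptor-positive breast cancer line, was sequenced after 24 hours with 4 μmol/L MI-503 or with the solvent DMSO. The paper describes this line as PIK3CA-mutant and gives RPMI or DMEM with fetal bovine serum as the medium of its cell lines. MI-503 blocks the association of menin with the histone methyltransferase MLL1. Each label had 3 libraries, which the study's methods give as independent experiments of 1 cell line, and each held 17404736 to 22168525 estimated reads. Expression is given as CPM, the read count scaled to a common library size, after TMM, a factor that corrects each library for its composition, and a gene was called at an adjusted p under 0.05 by edgeR's quasi-likelihood test of the MI-503 label over the DMSO label.

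Androgens such as testosterone and dihydrotestosterone are steroid hormones that control transcription in the luminal cells of the prostate. They act at DNA elements that pioneer factors such as FOXA1 have opened, where coactivators are then recruited. The genes they regulate include secreted proteases, surface antigens, ion channels, lipid enzymes and FKBP5, a co-chaperone that feeds back on steroid signalling. Luminal breast cells also respond to androgens, beside estrogen and progesterone.

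In the libraries labelled DMSO, the luminal breast markers listed for T47D were near 0 or at lower levels, so the groups are called by their labels throughout. ESR1, the estrogen receptor, had 209.5, 240.3 and 296 CPM in the libraries labelled MI-503, against 0, 0.194 and 0 CPM in those labelled DMSO. PGR, the progesterone receptor, had 1278 to 1533 CPM with the MI-503 label, against 0.0456 to 0.533 CPM with the DMSO label. KLK3, which encodes prostate-specific antigen, had no read with the MI-503 label, against 3673 to 3762 CPM with the DMSO label. All 10 luminal breast markers were called higher with the MI-503 label, with a summed level of 10033 to 12829 CPM against 237 to 356 CPM, and all 7 prostate luminal markers were called lower, with a summed level of 43.5 to 54.5 CPM against 5815 to 6879.8 CPM. Of the luminal breast markers, TFF1, KRT19, AGR2, XBP1 and TFAP2C still reached 1 CPM in every library labelled DMSO, where XBP1 had 271, 231 and 146 CPM. Since all 3 libraries of a label stood apart, no comparison could be made without them, and an effect of MI-503 cannot be told apart from this difference between the libraries. The gene list holds prostate luminal genes by its own rule, so the direction of its counts is not independent of these markers. The marker lists too were chosen with earlier results of these data known, so their counts are not independent of those results. In bulk RNA, fewer cells of a type and less RNA per cell cannot be told apart.

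Promoters were looked up in RefSeq windows (GRCh38.p14) that run from 250 bases before to 50 bases after a gene's start, and 25 of the 33 genes had one. TMPRSS2, FOLH1, PSCA, NDRG1, NNMT, ELL2, PLPP1 and ZBTB10 had none. The window whose start lay nearest to the gene's leading transcript was read for each gene, which lay 587 bases away for NCAPD3 and under 100 bases away for the others. The androgen response element is a pair of half-sites, AGAACA and TGTTCT, separated by 3 bases, and single half-sites were searched on both strands. A half-site stood in the window of 1 of the 25 genes (4.0%), against 14.8% of all 35116 RefSeq windows, and the exact full element stood in none of the 25 and in 1 of all windows. Absence from this window says only that these letters are not in it. The windows below are those of the gene with the highest level among those with a window that were expressed with the DMSO label alone (MME, chr3:155080069-155080368, plus strand), the gene with the largest rise (PTGER4, chr5:40679665-40679964, plus strand), the called gene expressed with both labels with the smallest change (PDIA5, chr3:123066775-123067074, plus strand) and the gene that held the half-site (TSPAN1, chr1:46174837-46175136, plus strand, chosen after the search). Capitals mark the 50 transcribed bases and, in TSPAN1, the half-site that begins at position -189 from the start.
MME: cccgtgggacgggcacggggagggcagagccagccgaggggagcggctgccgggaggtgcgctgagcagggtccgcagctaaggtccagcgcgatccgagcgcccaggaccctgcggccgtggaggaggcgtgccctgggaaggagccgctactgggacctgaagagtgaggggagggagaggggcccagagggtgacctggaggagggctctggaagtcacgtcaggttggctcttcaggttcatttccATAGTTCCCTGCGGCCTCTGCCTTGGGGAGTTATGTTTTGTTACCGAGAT
PTGER4: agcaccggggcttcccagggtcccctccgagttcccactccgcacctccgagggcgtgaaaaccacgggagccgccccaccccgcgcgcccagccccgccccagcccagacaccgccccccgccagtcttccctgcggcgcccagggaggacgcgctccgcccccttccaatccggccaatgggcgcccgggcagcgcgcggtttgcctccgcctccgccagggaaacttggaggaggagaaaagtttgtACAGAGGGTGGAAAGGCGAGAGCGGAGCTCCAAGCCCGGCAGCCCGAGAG
PDIA5: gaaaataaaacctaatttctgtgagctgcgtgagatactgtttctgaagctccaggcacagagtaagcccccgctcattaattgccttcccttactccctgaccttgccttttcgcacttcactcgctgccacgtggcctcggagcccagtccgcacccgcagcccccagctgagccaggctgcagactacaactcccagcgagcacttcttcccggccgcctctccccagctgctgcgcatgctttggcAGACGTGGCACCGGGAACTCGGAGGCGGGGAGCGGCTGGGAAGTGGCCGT
TSPAN1: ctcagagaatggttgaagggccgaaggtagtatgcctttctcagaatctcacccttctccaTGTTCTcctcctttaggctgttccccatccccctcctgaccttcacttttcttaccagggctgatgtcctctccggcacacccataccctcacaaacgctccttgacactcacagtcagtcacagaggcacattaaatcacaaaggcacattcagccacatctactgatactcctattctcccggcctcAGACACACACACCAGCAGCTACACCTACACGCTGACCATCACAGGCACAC
The windows differed in base composition. PTGER4 had 72.0% G and C with 30 CpG dinucleotides, MME had 66.3% with 19, PDIA5 60.7% with 18 and TSPAN1 52.0% with 5, and the median was 27 CpG over the 25 genes, against 14 over all windows. ACP3, TRPM8 and C1orf116 had 2, 3 and 1 CpG.

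Of the 33 genes, 26 were lower and 3 were higher with the MI-503 label, and 4 were not called. Over all genes tested, 31.2% were called lower and 31.7% were called higher. At the study's stricter threshold, which adds a log2 fold change beyond 2 in size, 21 of the 33 were lower and 1 was higher, against 11.7% and 12.6% of all genes tested. The median log2 fold change was -2.81 over the 33 genes and 0.00 over all genes tested (-0.0044). All 33 passed the filter on low counts. Together they took 0.102% to 0.115% of the reads in the libraries labelled MI-503, against 0.453% to 0.584% in those labelled DMSO.

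**Figure D1:**
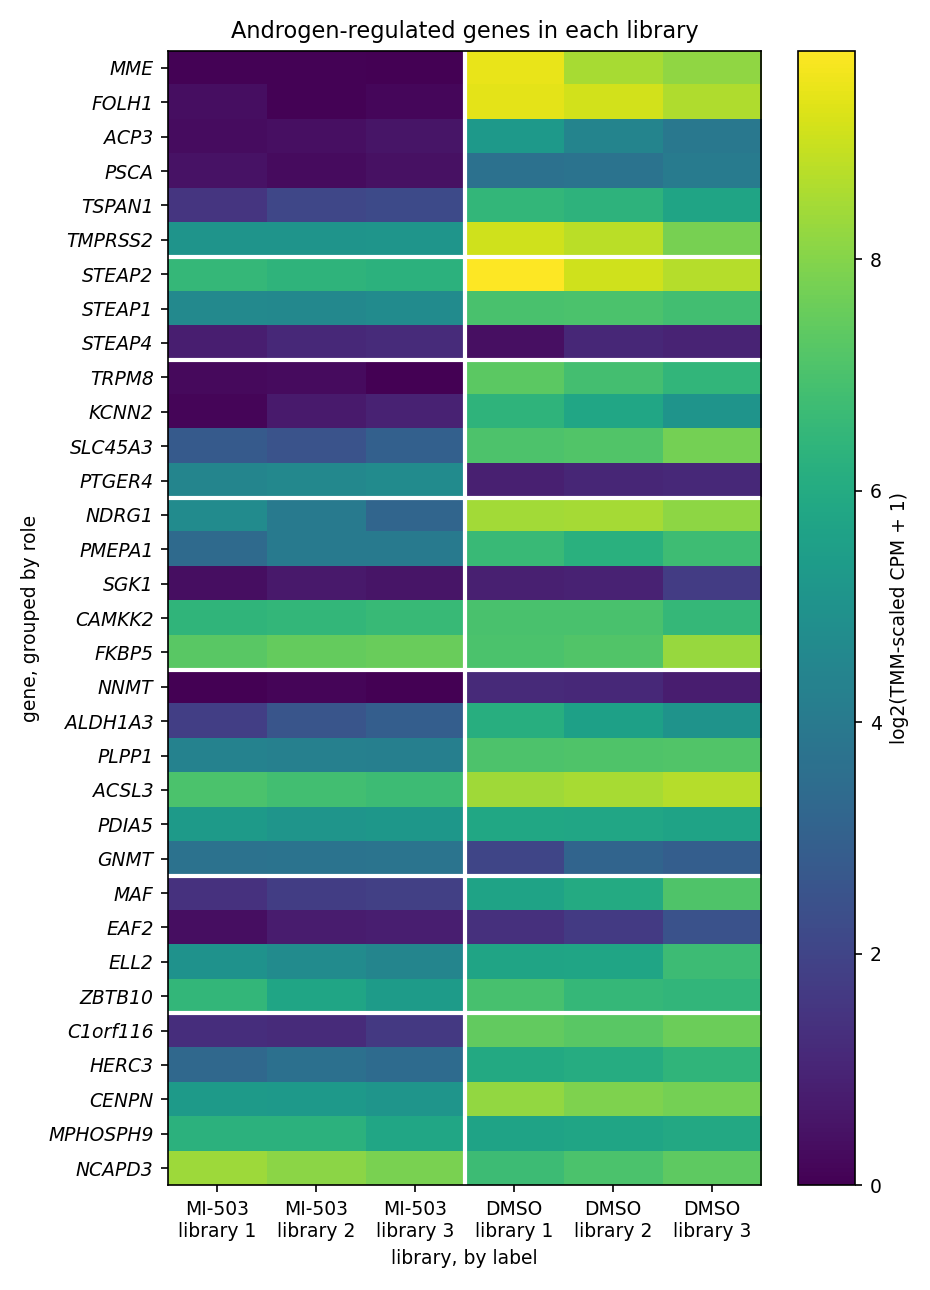
Expression of the 33 genes (rows, grouped by role with white lines between groups) in the 3 libraries labelled MI-503 and the 3 labelled DMSO (columns), as log2(TMM-scaled CPM + 1). MME, FOLH1 and TRPM8 are near 0 in every MI-503 library and high in every DMSO library, PTGER4 shows the opposite, and FKBP5, CAMKK2 and MPHOSPH9 are at similar levels in both.

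**Figure D2:**
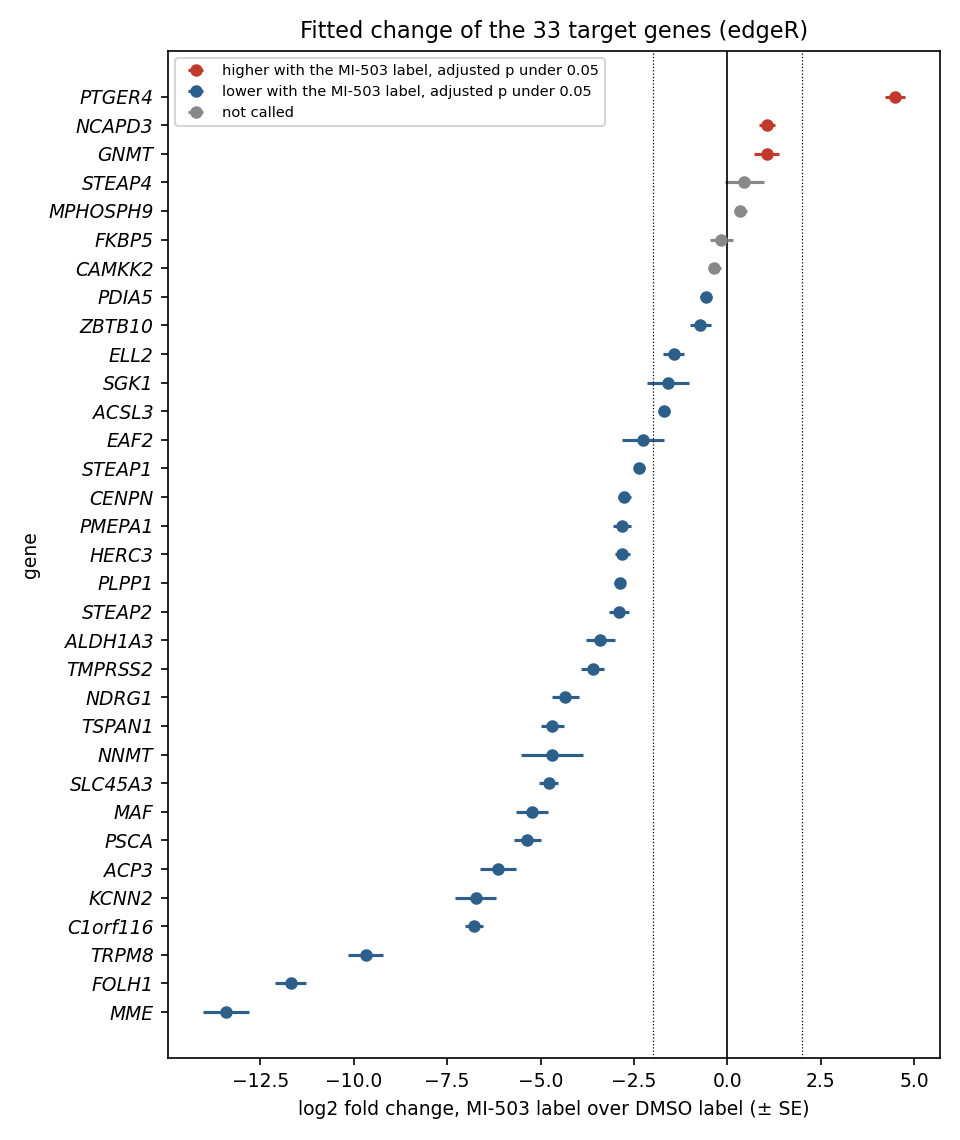
Fitted log2 fold change of each gene, MI-503 label over DMSO label, with its SE (edgeR, 3 libraries per label), coloured by call, with dotted lines at the study's fold threshold of 2. The values run from MME at the low end to PTGER4 at 4.49, and the points of MME and NNMT rest on 2 reads each with the MI-503 label.

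The surface and secreted enzymes and antigens held the 2 largest falls, and all 6 of them were called lower. MME, the membrane metalloendopeptidase neprilysin, had 0.0488, 0.0523 and 0 CPM in the libraries labelled MI-503, against 715, 361 and 288 CPM in those labelled DMSO. Only 2 reads fell on it with the MI-503 label and 29591 with the DMSO label, a pooled ratio of DMSO over MI-503 of 12912 (95% counting interval 3574 to 106624, adjusted p 1.12e-07 by edgeR). FOLH1, which encodes prostate-specific membrane antigen, had 0.292, 0.0523 and 0.119 CPM with the MI-503 label, against 673, 566 and 398 CPM with the DMSO label (log2 fold change -11.69 ± 0.41 SE). These were nearly absent from 1 set of libraries and among the strongly expressed genes of the other, where FOLH1 stood at the 98.3rd percentile of all genes tested by TPM, a level per transcript length. FOLH1B, a near-identical copy of FOLH1 annotated as a pseudogene and as a lncRNA, had no read with the MI-503 label, against at most 5.42 CPM under either annotation with the DMSO label, so reads could be split between the copies.

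ACP3, prostatic acid phosphatase, had 0.244, 0.314 and 0.475 CPM with the MI-503 label, against 37.9, 20.4 and 14.1 CPM with the DMSO label (log2 fold change -6.13 ± 0.48 SE). PSCA, a GPI-anchored surface antigen, had 0.390, 0.209 and 0.356 CPM with the MI-503 label, against 11.6, 12.3 and 15.9 CPM with the DMSO label (-5.35 ± 0.36 SE). TSPAN1, a tetraspanin, averaged 2.87 ± 0.90 CPM with the MI-503 label and 73.2 ± 19.1 CPM with the DMSO label (SD, n = 3 libraries each). TMPRSS2, a transmembrane serine protease whose promoter drives ERG in many prostate tumors, was well expressed with both labels. It had 32.8, 33.1 and 34.0 CPM in the libraries labelled MI-503, against 552, 441 and 221 CPM in those labelled DMSO, with a log2 fold change of -3.60 ± 0.31 SE and an adjusted p of 6.35e-06 by edgeR. The MI-503 libraries lay within a narrow range and the DMSO libraries spread 2.5-fold, and the groups did not overlap. MX1, on the opposite strand over TMPRSS2, was called higher (31.2 CPM with the MI-503 label and 3.85 CPM with the DMSO label), and whether the libraries kept strand is not given in the sources used here.

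Of the 3 listed genes of the STEAP family of membrane proteins, 2 were lower and 1, at a low level, was not called. STEAP2 (chromosome 7, 90167590 to 90238137) had 91.1, 82.7 and 77.2 CPM with the MI-503 label, against 889.9, 549 and 421 CPM with the DMSO label. STEAP1, its neighbour on the same strand (90154456 to 90164829), had 23.6, 22.9 and 25.5 CPM with the MI-503 label, against 125, 129 and 113 CPM with the DMSO label. Both were called lower, with log2 fold changes of -2.89 ± 0.27 SE and -2.35 ± 0.15 SE. STEAP4, on the same chromosome (88270892 to 88306894), was low everywhere, at 0.780, 1.20 and 1.31 CPM with the MI-503 label and 0.317, 1.11 and 0.957 CPM with the DMSO label, and was not called (log2 fold change 0.46 ± 0.52 SE, adjusted p 0.468 by edgeR). Its groups overlapped, and 61 and 51 reads stood behind these values. Per transcript length, STEAP1 and STEAP2 stood at 179 ± 15.9 and 153 ± 71.6 TPM with the DMSO label, a difference smaller than the spread between the STEAP2 libraries. STEAP3, a family member outside the 33, was also called lower, at 11.6 CPM with the MI-503 label and 34.7 CPM with the DMSO label (log2 fold change -1.58 ± 0.20 SE). STEAP1B, which resembles STEAP1, had 1 read with the MI-503 label and 6 with the DMSO label.

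Among channels, transporters and receptors, 3 genes were lower and 1 was higher. TRPM8, the cation channel opened by cold and menthol, had 0.195, 0.209 and 0 CPM with the MI-503 label, against 159, 117 and 87.2 CPM with the DMSO label (log2 fold change -9.68 ± 0.46 SE). KCNN2, a calcium-activated potassium channel, had 0.0975, 0.628 and 0.891 CPM with the MI-503 label, against 81.3, 54.0 and 32.6 CPM with the DMSO label (-6.73 ± 0.55 SE). SLC45A3, the transporter-family protein prostein, was expressed with both labels, at 5.90 ± 1.21 CPM with the MI-503 label and 162 ± 45.6 CPM with the DMSO label (-4.78 ± 0.26 SE, SD over 3 libraries each).

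PTGER4, the EP4 receptor for prostaglandin E2, was the 1 gene of the 33 above the fold threshold in the higher direction. It had 20.9, 23.1 and 25.4 CPM in the libraries labelled MI-503, against 0.814, 1.07 and 1.19 CPM in those labelled DMSO. The groups were far apart relative to their spread (log2 fold change 4.49 ± 0.26 SE, adjusted p 4.51e-07 by edgeR). PTGER4 lies on chromosome 5 from 40679915 to 40693735, and TTC33 overlaps it on the opposite strand. TTC33 was also called higher, with 31.7 CPM under the MI-503 label and 12.3 CPM under the DMSO label, a log2 fold change of 1.36.

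Of the 5 co-chaperone and signalling genes, 3 were lower and 2 were not called. FKBP5, one of the most used readouts of androgen action and also a target of the glucocorticoid and progesterone receptors, had 155, 179.5 and 189.7 CPM with the MI-503 label and 131, 139.9 and 314 CPM with the DMSO label. The groups overlapped, since DMSO library 3 stood above all others and DMSO libraries 1 and 2 below all MI-503 libraries. Its log2 fold change was -0.16 ± 0.30 SE (adjusted p 0.671 by edgeR). Without DMSO library 3 the sign turned, to 0.37 with an adjusted p of 0.0697, and over the 14 alternatives the adjusted p ranged up to 0.934. CAMKK2, a kinase upstream of AMPK, had 83.9, 88.1 and 96.2 CPM with the MI-503 label and 125, 126 and 90.4 CPM with the DMSO label, and the groups overlapped through DMSO library 3. It was not called (-0.35 ± 0.17 SE, adjusted p 0.0972 by edgeR), but was called lower without DMSO library 3 (adjusted p 0.0168) and with upper-quartile scaling (0.0409), and the alternatives ranged up to 0.279.

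NDRG1, a stress-responsive gene, had 25.3, 14.8 and 8.14 CPM with the MI-503 label, against 344, 353 and 279 CPM with the DMSO label (log2 fold change -4.33 ± 0.37 SE). PMEPA1, a membrane protein that restrains TGF-β signalling, had 13.3 ± 3.34 CPM with the MI-503 label, against 93.4 ± 17.8 CPM with the DMSO label (-2.81 ± 0.24 SE, SD over 3 libraries each). SGK1, a serum- and glucocorticoid-regulated kinase, was near the detection limit, at 0.292, 0.575 and 0.475 CPM with the MI-503 label and 0.814, 0.920 and 2.32 CPM with the DMSO label. It was called lower (-1.59 ± 0.56 SE, adjusted p 0.03 by edgeR), but the call was lost without any one of MI-503 library 1 (adjusted p 0.115), MI-503 library 2 (0.0621), MI-503 library 3 (0.0798) or DMSO library 3 (0.148) and with length-scaled counts (0.175), and the lowest value over the alternatives was 0.0242.

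Of the 6 enzymes of lipid, retinoid, methyl and disulfide chemistry, 5 were lower and 1 was higher. ACSL3, which activates long-chain fatty acids, was among the best expressed genes of the list with both labels, at 130, 114 and 103 CPM with the MI-503 label and 334, 369 and 419 CPM with the DMSO label (log2 fold change -1.70 ± 0.16 SE). PLPP1, a lipid phosphate phosphatase, had closely grouped libraries, at 18.5 ± 0.81 CPM with the MI-503 label and 136 ± 3.08 CPM with the DMSO label (-2.88 ± 0.15 SE, SD over 3 libraries each). ALDH1A3, which makes retinoic acid, had 4.70 ± 2.04 CPM with the MI-503 label and 49.3 ± 18.7 CPM with the DMSO label (-3.40 ± 0.38 SE). NNMT, which methylates nicotinamide, had 2 reads with the MI-503 label and 69 with the DMSO label, a pooled ratio of DMSO over MI-503 of 30.1 (95% counting interval 8.03 to 254, adjusted p 7.27e-04 by edgeR).

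PDIA5, a protein disulfide isomerase of the endoplasmic reticulum, showed the smallest called change, at 39.3, 33.1 and 35.5 CPM with the MI-503 label and 56.1, 54.3 and 49.9 CPM with the DMSO label. Its groups did not overlap (log2 fold change -0.57 ± 0.15 SE, adjusted p 0.00828 by edgeR), although without MI-503 library 2 the adjusted p was 0.0553, the highest over the alternatives. GNMT, which methylates glycine with S-adenosylmethionine, went the other way, at 11.9, 12.1 and 12.7 CPM with the MI-503 label and 3.12, 7.99 and 6.61 CPM with the DMSO label (1.05 ± 0.33 SE, adjusted p 0.0178 by edgeR). PEX6, which overlaps GNMT on the opposite strand, was also called higher, at 108 CPM with the MI-503 label and 38.3 CPM with the DMSO label.

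All 4 genes of transcription and elongation were called lower, by very different amounts. MAF, a basic leucine zipper factor, had 1.61, 2.46 and 2.61 CPM with the MI-503 label, against 49.8, 63.2 and 138 CPM with the DMSO label (log2 fold change -5.24 ± 0.43 SE). ELL2, an RNA polymerase II elongation factor, had 30.8, 25.4 and 21.1 CPM with the MI-503 label, against 51.6, 53.5 and 103 CPM with the DMSO label (-1.43 ± 0.28 SE). EAF2, a partner of the ELL factors, was low, at 0.292, 0.680 and 0.772 CPM with the MI-503 label and 1.58, 2.18 and 4.56 CPM with the DMSO label (-2.26 ± 0.55 SE). ZBTB10, a zinc finger repressor, had 89.0, 53.0 and 40.9 CPM with the MI-503 label and 123, 91.5 and 86.3 CPM with the DMSO label. Its groups overlapped and its call was marginal (-0.72 ± 0.27 SE, adjusted p 0.0419 by edgeR). The call was lost without MI-503 library 2 (0.132), MI-503 library 3 (0.143), DMSO library 1 (0.128) or DMSO library 2 (0.0665), with 0.00299 as the lowest value over the alternatives.

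The last group holds chromosome, centrosome and ubiquitin genes, of which 3 of 5 were lower, 1 was higher and 1 was not called. C1orf116, known as the specifically androgen-regulated gene, had 1.41, 1.31 and 2.08 CPM with the MI-503 label, against 175, 158 and 192 CPM with the DMSO label (log2 fold change -6.78 ± 0.23 SE, adjusted p 2.51e-08 by edgeR). CENPN, a kinetochore protein, had 39.2, 38.0 and 33.7 CPM with the MI-503 label, against 298, 239 and 213 CPM with the DMSO label (-2.76 ± 0.18 SE). HERC3, a ubiquitin ligase, had 10.0 ± 1.20 CPM with the MI-503 label and 70.3 ± 12.7 CPM with the DMSO label (-2.81 ± 0.20 SE). A second gene identifier that carries the symbol HERC3 and overlaps it had 0.122 CPM with the MI-503 label and 18.4 CPM with the DMSO label, and was kept apart from the first.

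NCAPD3, a subunit of condensin II, had 327, 276 and 223 CPM with the MI-503 label, against 103, 129 and 163 CPM with the DMSO label (log2 fold change 1.07 ± 0.21 SE, adjusted p 0.00131 by edgeR). Every MI-503 library lay above every DMSO library. These counts sum all transcripts of the gene, and a rise of its protein-coding transcript NCAPD3-212 was not shown. NCAPD3-212 took 0.560% to 2.25% of the reads with the MI-503 label and 10.7% to 15.5% with the DMSO label. VPS26B, on the opposite strand over NCAPD3, was also called higher, at 239.5 CPM with the MI-503 label and 95.4 CPM with the DMSO label. In all, 13 of the 33 genes overlapped some gene at 1 CPM or more. Some partners were called higher and others lower, over lower genes as well as over higher ones. MTREX, opposite PLPP1, had 116.1 CPM with the MI-503 label and 74.3 CPM with the DMSO label, and SEC22A, on the same strand as PDIA5, had 23.3 CPM and 15.9 CPM. CMC2, opposite CENPN, was called lower, at 45.5 CPM with the MI-503 label and 115.8 CPM with the DMSO label. So were a lncRNA on the strand of CENPN (5.67 CPM and 20.8 CPM) and ALDH1A3-AS1, opposite ALDH1A3 (0.168 CPM and 1.69 CPM). JAM3, also opposite NCAPD3, was lower, with no read with the MI-503 label and 1.63 CPM with the DMSO label. Whether reads of these partners entered the counts was not tested. MPHOSPH9, a centriolar protein, had 76.9, 77.4 and 54.1 CPM with the MI-503 label and 49.8, 53.7 and 59.9 CPM with the DMSO label. It was not called (0.35 ± 0.18 SE, adjusted p 0.115 by edgeR) but was called higher without MI-503 library 3 (0.0367) and with length-scaled counts (0.0275), and the alternatives ranged up to 0.282.

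By level, 22 of the 33 genes were expressed with both labels, taken as 1 CPM or more in all 3 libraries of each label, against 72.3% of all genes tested. Another 7 were expressed with the DMSO label alone (FOLH1, MME, PSCA, ACP3, TRPM8, EAF2 and KCNN2), which is 21.2% of the list against 5.84% of all genes tested. FOLH1, MME, PSCA and TRPM8 were in this class at every cutoff tried. EAF2 and KCNN2 left it at 0.5 CPM, EAF2 at 5 CPM, and EAF2 and ACP3 at 1 TPM, while NNMT entered it at 0.5 CPM, at 1 TPM and without DMSO library 3, C1orf116 entered it at 5 CPM and 1 TPM, and MAF and TSPAN1 entered it at 5 CPM, where 16 genes were expressed with both labels. None was expressed with the MI-503 label alone, against 6.72% of all genes tested, though PTGER4 was at a cutoff of 5 CPM or of 1 TPM. STEAP4, NNMT, PTGER4 and SGK1 were mixed, with libraries of the same label on both sides of 1 CPM. Among the 22 genes expressed with both labels, 17 were lower, 2 were higher and 3 were not called, with a median log2 fold change of -2.78, and among the 11884 genes expressed with both labels 3417 were lower and 3524 higher, with a median of 0.00 (0.0042).

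Ranked per transcript length, the genes changed places between the labels. With the MI-503 label the highest were NCAPD3 (95.4 ± 23.1 TPM), FKBP5 (63.0 ± 7.73 TPM) and ACSL3 (55.2 ± 4.75 TPM), and the last 2 differed by less than the sum of their SDs. The same held for ACSL3 and the next gene, MPHOSPH9 (43.3 ± 9.93 TPM). With the DMSO label the highest were FOLH1 (423 ± 109 TPM), CENPN (232 ± 37.0 TPM) and NDRG1 (217 ± 107 TPM), but CENPN did not differ from NDRG1 beyond their spread, and MME (203 ± 96.9 TPM), TMPRSS2 (193 ± 91.1 TPM), STEAP1 (179 ± 15.9 TPM), ACSL3 (176 ± 20.1 TPM), STEAP2 (153 ± 71.6 TPM), PLPP1 (148 ± 4.86 TPM) and TSPAN1 (132 ± 42.7 TPM) lay within the SD of NDRG1. NCAPD3 stood at 41.8 ± 12.5 TPM with the DMSO label, and FOLH1 at 0.153 ± 0.158 TPM with the MI-503 label (SD, n = 3 libraries each).

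The libraries of 1 label also differed among themselves, a pattern looked at after the values were seen. In the libraries labelled DMSO, 27 of the genes averaged 10 CPM or more. The ratio of their highest to their lowest library had a median of 1.58, against 1.34 over the 9957 genes at that level, while with the MI-503 label the median was 1.22 over 18 of the genes, against 1.26 over 10150 genes. TMPRSS2, STEAP2, FOLH1, MME, ACP3, TRPM8, ALDH1A3, CENPN, ZBTB10, KCNN2, TSPAN1 and PDIA5 were highest in DMSO library 1 and lowest in DMSO library 3, which is 12 of the 27 (44.4%) against 32.4% of all genes at that level. FKBP5, PSCA, SLC45A3, NCAPD3, ACSL3, ELL2, HERC3, MAF, MPHOSPH9 and PLPP1 were highest in DMSO library 3 and lowest in DMSO library 1, which is 10 of the 27 (37.0%) against 21.7%. The MI-503 libraries showed such orders too, with 8 of 18 genes (44.4%) highest in library 1 and lowest in library 3, against 23.6% of all genes at that level, and 6 of 18 (33.3%) in the reverse order, against 22.2%. Mitochondrial genes took 5.34%, 3.54% and 2.84% of the reads in MI-503 libraries 1, 2 and 3 and 3.78%, 1.38% and 7.18% in DMSO libraries 1, 2 and 3, and the part of library quality in these patterns was not tested.

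**Figure D3:**
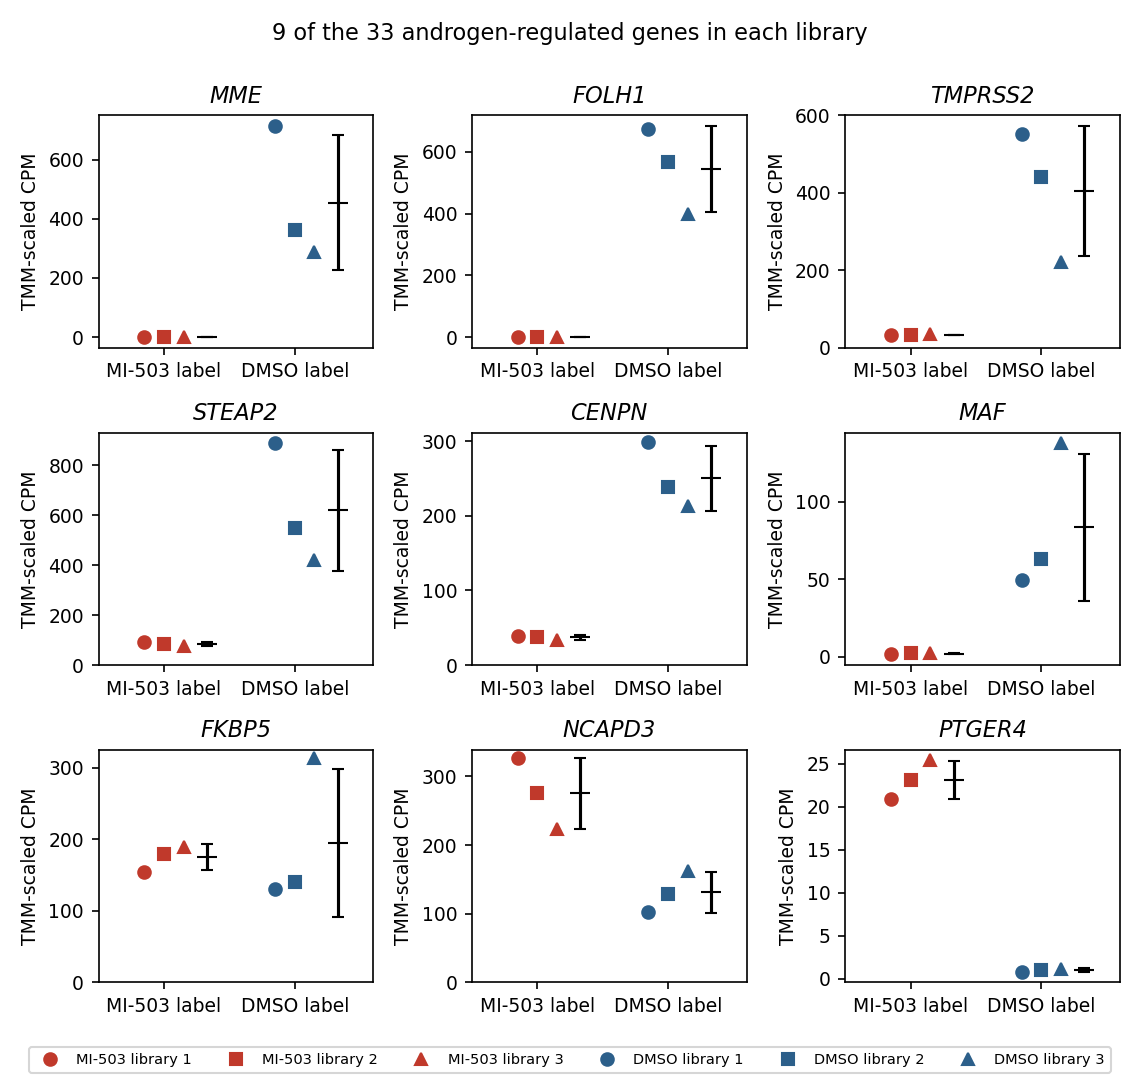
TMM-scaled CPM of 9 of the 33 genes in each library, with the MI-503 label left of the DMSO label, symbols for library 1, 2 and 3, and black marks for the mean ± SD of 3 libraries. MME, FOLH1, TMPRSS2, STEAP2 and CENPN are highest in DMSO library 1, MAF and FKBP5 in DMSO library 3, and NCAPD3 and PTGER4 are higher in every MI-503 library.

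FOXA1, a pioneer factor of both tissues, had 369, 531 and 515 CPM with the MI-503 label and 581, 461 and 379 CPM with the DMSO label and was not called (log2 fold change -0.01, adjusted p 0.98 by edgeR). HOXB13, a prostate homeobox factor, had 1 read with the MI-503 label, against 449 to 616 CPM with the DMSO label. Of the 37 genes of the androgen signalling machinery, 36 were tested, with a median log2 fold change of -0.08. Of these, 13 were lower, 8 were higher and 15 were not called, against 31.2% lower and 31.7% higher over all genes tested. The count of machinery genes called higher was 5 without MI-503 library 3 or without DMSO library 2. GATA2, a further pioneer factor, was lower (-2.90), as were NCOR1, a corepressor (-1.80), and PRMT1, an arginine methyltransferase (-1.54). The coactivator NCOA3 was higher (2.40), with 142 to 218 CPM against 28.4 to 37.7 CPM, and so was the chaperone HSPA1A (4.02), with 69.4 to 87.1 CPM against 3.20 to 7.57 CPM, though its reads cannot be told with certainty from those of its near-identical copy HSPA1B.

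Receptors of other steroid hormones can occupy elements of the same kind. The glucocorticoid receptor NR3C1 had 17.0 to 19.8 CPM with the MI-503 label, against 0 to 0.726 CPM with the DMSO label (log2 fold change 5.27, adjusted p 5.80e-05 by edgeR), and PGR differed as given above. The mineralocorticoid receptor NR3C2 was not called (0.40, adjusted p 0.322). Their part in the levels of FKBP5 or SGK1 was not tested.

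A second list of 61 other androgen-responsive genes, outside the 33, gave a more even split than the 33. Of the 58 that were tested, 27 were lower, 13 were higher and 18 were not called. Over all genes tested, 31.2% were called lower and 31.7% higher. The median log2 fold change of the 58 was -0.33, and it was the same with the 3 genes that had no read with one label set at their bound. ABCC4, an efflux transporter, had 2 reads with the MI-503 label, against 176 to 335 CPM with the DMSO label. GUCY1A1, a soluble guanylate cyclase subunit, had none, against 78.3 to 115 CPM, which makes it at least 1713-fold lower, and RPS6KA3, a ribosomal S6 kinase, had none, against 38.0 to 51.8 CPM, at least 851-fold lower (floor of 3 reads over the 3 libraries). AZGP1, a secreted glycoprotein, was higher, with 258 to 295 CPM against 7.42 to 10.3 CPM (4.97), as were IDI1, an isoprenoid enzyme (3.48), and GREB1, also a target of the estrogen receptor (2.76).

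**Figure D4:**
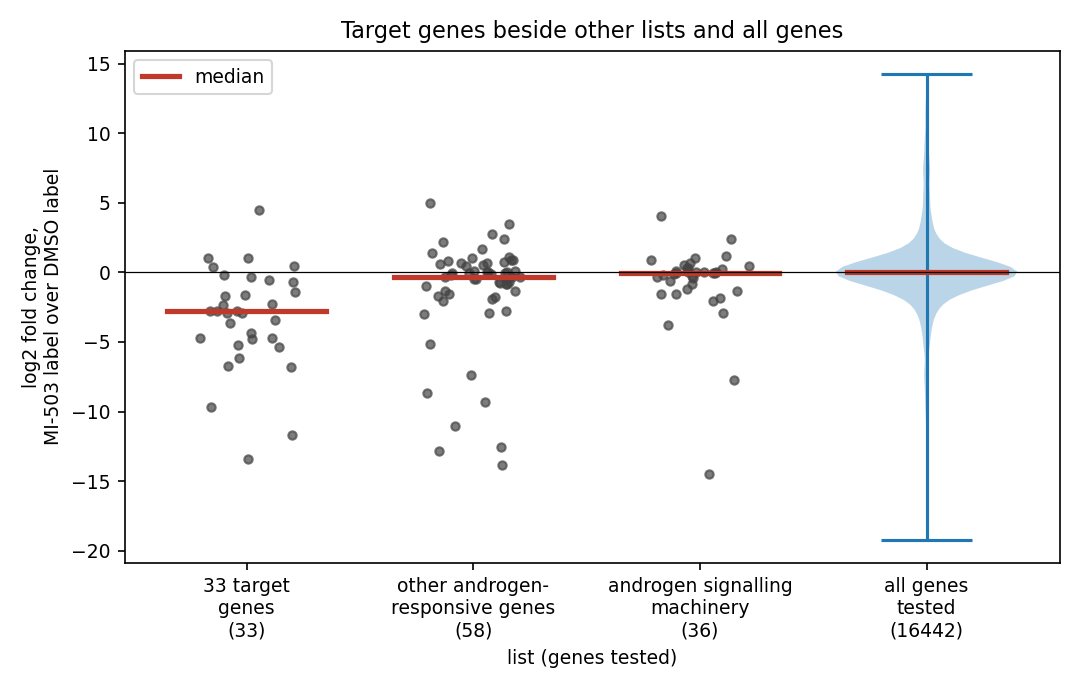
Fitted log2 fold change, MI-503 label over DMSO label, of the 33 genes, the 58 other androgen-responsive genes tested and the 36 genes of androgen signalling machinery tested (1 point per gene), and of all 16442 genes tested (width shows density), with medians in red. The medians are -2.81, -0.33, -0.08 and 0.00 (-0.0044), and fitted values of genes without reads in 1 label depend on the prior count.

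Transcript shares, the percent of a gene's estimated reads that salmon gave to each transcript, were compared over the 22 genes expressed with both labels, with no test, since the uncertainty of the assignment was not analysed here. Only C1orf116 had a different leading transcript, with C1orf116-202 at 81.7% ± 22.5 with the MI-503 label and 39.1% ± 7.16 with the DMSO label, but 89 reads stood behind the MI-503 value. The count rose to 2 without MI-503 library 1 (with NCAPD3) or without DMSO library 2 (with STEAP2) and to 3 without DMSO library 1 (with STEAP2 and CENPN), and by share of TPM 4 other genes (PMEPA1, NCAPD3, CENPN and TSPAN1) took its place.

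CENPN differed in make-up between the labels. CENPN-205 took 29.6%, 20.4% and 20.9% of its reads with the MI-503 label, against 0.870%, 0.320% and 0.620% with the DMSO label, and CENPN-204 took 15.6%, 24.0% and 19.7%, against 2.46%, 2.81% and 1.54%. In NCAPD3, the protein-coding NCAPD3-212 took 0.560% to 2.25% with the MI-503 label and 10.7% to 15.5% with the DMSO label, and most reads of both labels went to 2 transcripts annotated for nonsense-mediated decay. TSPAN1-201 took 85.6% to 100% with the MI-503 label and 50.1% to 54.8% with the DMSO label, over 159 and 4731 reads. HERC3-201 had no read with the MI-503 label and 9.78% to 19.7% with the DMSO label. CAMKK2-202 had 25.4%, 0% and 0% with the MI-503 label and 27.1%, 38.0% and 34.2% with the DMSO label, so MI-503 library 1 stood with the DMSO libraries. Some leading transcripts took shares within the spread between libraries. ELL2-201 took 99.0% with the MI-503 label and 98.9% with the DMSO label, FKBP5-201 took 98.0% and 97.8%, and PLPP1-202 took 90.7% and 88.4%. In others the same transcript led but the shares of the groups lay apart, with ACSL3-202 at 67.2% ± 3.87 with the MI-503 label and 56.6% ± 2.66 with the DMSO label, ZBTB10-204 at 98.4% ± 1.46 and 86.7% ± 5.00, ALDH1A3-201 at 96.8% ± 2.98 and 85.9% ± 4.86, and MPHOSPH9-220 at 55.9% ± 1.48 and 67.6% ± 4.26 (SD, n = 3 libraries each).

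**Figure D5:**
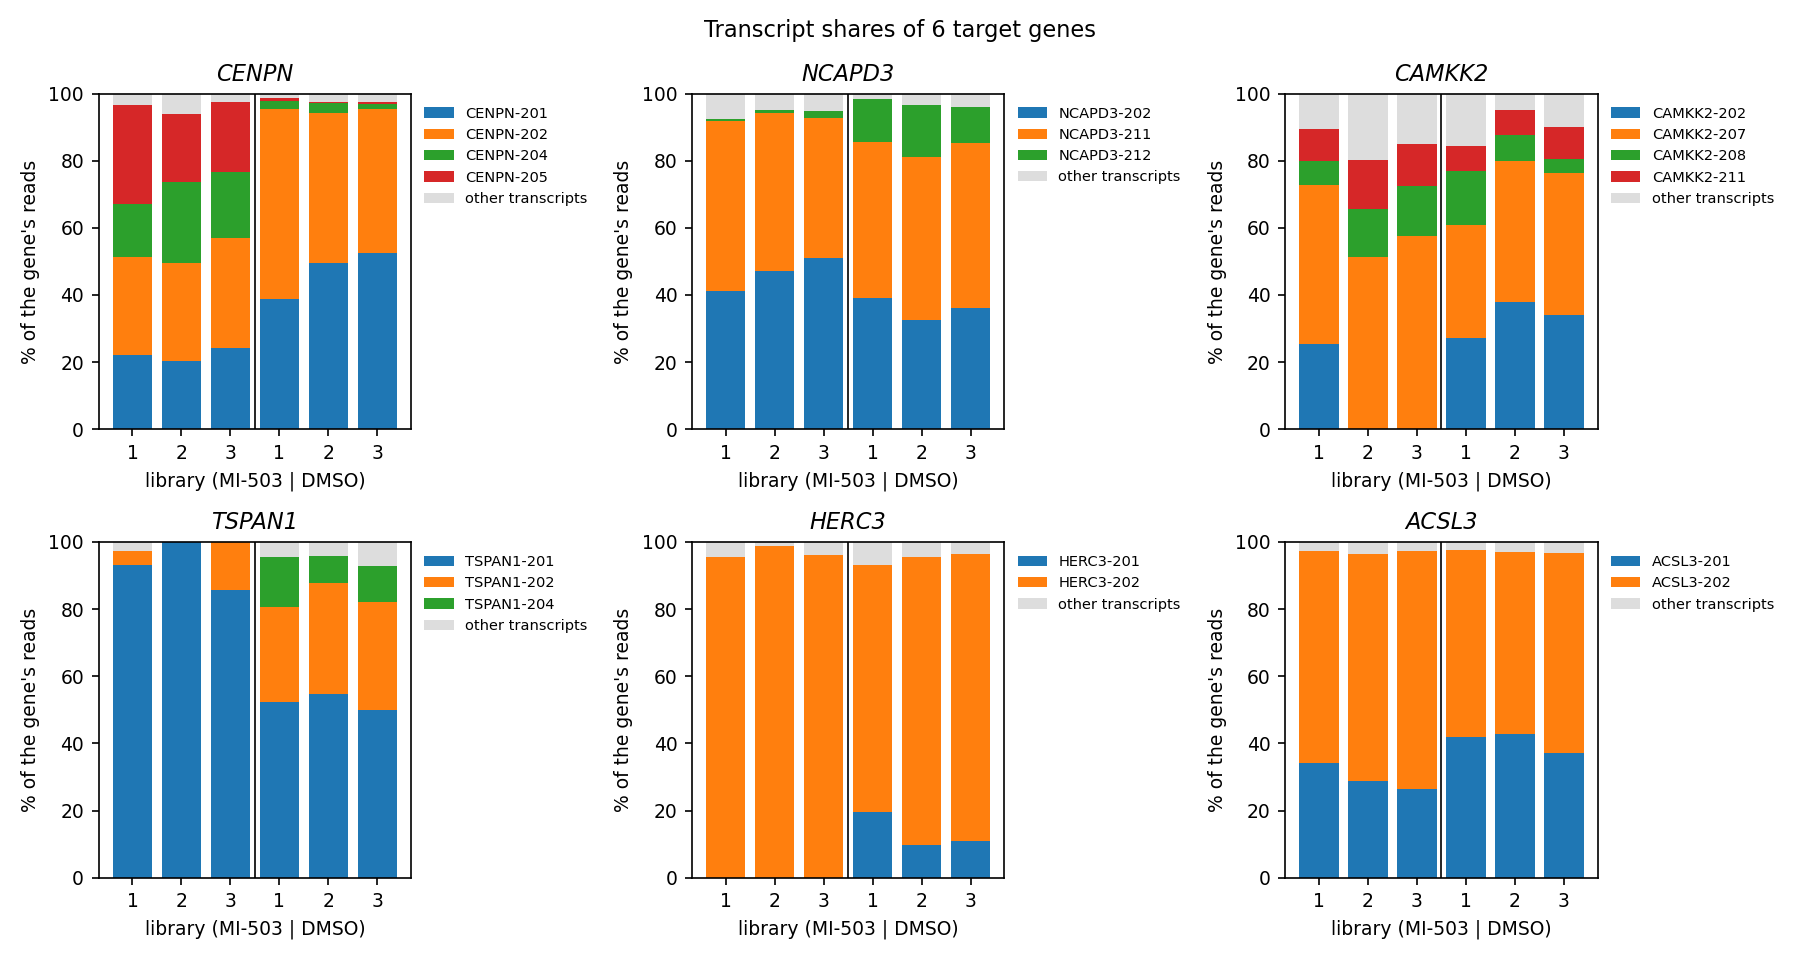
Share of each gene's estimated reads by transcript (stacked, in percent) in the 3 libraries labelled MI-503 and, right of the line, the 3 labelled DMSO, for 6 of the 33 genes, with transcripts under a mean of 10% with both labels in grey. CENPN-204 and CENPN-205 take a larger share with the MI-503 label, and NCAPD3-212 and HERC3-201 with the DMSO label. Shares are not amounts, since the level of a gene can also differ between the labels.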

How the data were processed

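Sequencing was done by Novogene. Transcript abundance was estimated by the authors with salmon as run by Illumina DRAGEN. The estimated counts per transcript were deposited without normalization, and the TPM in the same deposited files were made by the authors' salmon run from those counts and effective lengths. The submitters' processing notes name GRCh38.p13 and hg38. For the salmon version, the annotation release and the strand setting, no source used here gives a value.

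Transcripts were matched by identifier to GENCODE 44 (98.8% of transcripts and at least 99.16% of reads per library), and estimated counts were summed to genes and rounded. Libraries held 17404736 to 22168525 reads and were grouped by label. The MI-503 label was compared with the DMSO label by edgeR 4.0.16 (TMM, filterByExpr, quasi-likelihood test, Benjamini-Hochberg over 16442 genes) in R 4.3.3. The fit was also run on simulated counts in which few genes changed, so it was not tested at the share of genes called here. DESeq2 1.42.0, the study's tool, and limma 3.58.1 served as alternatives, with other scalings and filters, length-scaled counts, the replicate number as a block and each library left out. A group without reads was given a floor of 3 reads, and floors and intervals describe counting error alone: no molecular identifiers were read, so PCR copies count as separate reads. P-values weigh the difference between the labels against the spread between libraries of the same label, and do not tell what made the labels differ. The SE of an edgeR log2 fold change was worked back from the test, as the size of the change over the square root of its F statistic.

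The 33 genes and all lists were chosen with earlier results of these data known. Values per library are given for genes with a rise beyond the fold threshold, the 8 largest falls, the 3 highest by TPM with each label and those expressed with both labels with no call or the smallest change. From the androgen signalling machinery, FOXA1, HOXB13 and some others of low adjusted p are named, and from the other androgen-responsive genes up to 3 rises and 3 falls of at least 10 CPM. Further values were added after they were seen, and some results are not reported here. Coordinates of genes are those of GENCODE 44 (GRCh38). Basal, mesenchymal and blood markers were also summed: basal markers were at most 0.300 CPM with the MI-503 label and 4.84 CPM with the DMSO label, mesenchymal markers 214 to 318 CPM and 485 to 837 CPM, and blood markers at most 3.21 CPM and 0.100 CPM.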

Additional observations from a re-analysis of the deposited data

How the results depend on the processing

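Over the 14 alternatives, the count of the 33 genes called lower ranged from 23 to 27, the count beyond the fold threshold from 20 to 21 and the count called higher from 3 to 4, and the median log2 fold change from -2.91 (upper-quartile scaling) to -2.75 (without MI-503 library 1). Leaving out 1 library at a time gave 23 to 26 called lower, 3 to 4 called higher, medians from -2.89 to -2.75, and 5 to 9 machinery genes called higher, against 8. Of 460 refitted values of single genes, 444 kept their direction and their side of the threshold, and 27 of the 33 genes did so in every alternative that tested them. The log2 fold change of FKBP5 ranged from -0.38 to 0.37 as libraries were left out, and turned sign only without DMSO library 3. The weaker calls were those of SGK1, ZBTB10 and PDIA5, and the stronger ones those of CAMKK2 and MPHOSPH9, and the cause was not tested. Upper-quartile scaling moved the median of all genes tested to -0.10. PTGER4 was the 1 gene expressed with the MI-503 label alone at 5 CPM and at 1 TPM, against 0 at 1 CPM. The count expressed with both labels ranged from 16 (5 CPM) to 23, and that with the DMSO label alone from 6 (0.5 CPM) to 9 (5 CPM). By share of TPM, 4 genes had a different leading transcript, and leaving out 1 library gave 1 to 3, against 1.

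Same-numbered libraries showed no clear shared deviation, with correlations of -0.098, 0.071 and -0.089 between their deviations from the group means. With 3 libraries per label, these values cannot show whether the libraries were paired. With the replicate number as a block, 25 of the 33 genes were called lower, 3 higher, 21 and 1 beyond the fold threshold, with a median of -2.82, and 26 and 17 of the other androgen-responsive genes and 13 and 8 of the machinery were called lower and higher. The block also took the call from SGK1 (adjusted p 0.0698 by edgeR).

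Depth limits EAF2, SGK1, STEAP4 and NNMT, which averaged under 3 CPM with both labels, and a group without reads allows up to 0.0531 CPM with the MI-503 label and 0.0464 CPM with the DMSO label.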
